A study of Mus musculus with 6 samples.

Results

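The 42 collagen alpha chain genes measured in mouse skin were taken from the 16331 probe sets of the array as every gene whose symbol has the form Col, number, a, number. The skin came from 3 wild type mice and 3 mice labelled as knockouts of the homeobox gene Hoxc13 with the allele Hoxc13tm1Mrc. Hoxc13 encodes a transcription factor active in hair follicles. Both groups were male C57BL/6 mice according to the labels, and the titles give 5 dpn for every sample. The sources used here do not say whether the mutants carried 1 or 2 targeted copies, or whether the array's Hoxc13 probes fall in the altered stretch. According to the design text the samples were independent. The comparison asks which skin transcripts differ where Hoxc13 is targeted.

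Collagens are built from 3 alpha chains wound into a triple helix, and each chain has its own gene. The fibrillar types form the rope-like fibrils that give the dermis its strength, and the fibril-associated types sit on the surface of those fibrils. Type IV forms the sheet of the basement membrane, type VII anchors the epidermal basement membrane to the dermis, type XVII spans the membrane of basal keratinocytes, and type VI forms beaded filaments around cells. The hair follicle is enclosed by a basement membrane and a collagen-rich connective tissue sheath. The 42 genes were sorted into classes by these roles: 11 fibrillar, 9 fibril-associated, 6 basement membrane, 5 beaded filament, 4 transmembrane, 3 short-chain network, 2 multiplexin, 1 anchoring fibril and 1 other (Col26a1). The RefSeq gene table lists 44 genes of this form; Col6a6 and Col28a1 were not analysed here.

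The values are log2 expression values of 1 probe set per gene, summarised by RMA, which corrects for background and brings the arrays to a common distribution, and the 6 arrays share a median of 7.405. Mutant replicate 3 stood apart: it correlated at 0.989 to 0.990 with the other mutant arrays, which correlated at 0.997 with each other, as did the wild type arrays (0.996 to 0.997). The Hoxc13 probe set read 9.63, 9.81 and 9.83 in wild type replicates 1 to 3 and 8.95, 8.75 and 9.74 in mutant replicates 1 to 3, so the third mutant array was inside the span of the wild type arrays. The difference of -0.61 missed the threshold of the limma test with all arrays (adjusted p = 0.293) and passed it without mutant replicate 3 (-0.90, adjusted p = 0.00114). Xist read 11.15 to 11.67 and the 7 probe sets of Y chromosome genes 2.98 to 4.89 on all 6 arrays. These values do not match the male mice given by the labels. The highest Y chromosome value was that of Usp9y in mutant replicate 3 (4.89), and the next highest was 4.58, of Usp9y in wild type replicate 1. Because of mutant replicate 3, collagen results are given with and without it. The fit without it keeps only mutant replicates 1 and 2, which are very alike, so its p-values may understate the spread between mutant animals.

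No collagen gene passed the test with all 6 arrays (0 of 42, limma with Benjamini-Hochberg adjustment over 16331 probe sets, adjusted p below 0.05), where 2.08% of all probe sets passed. At an unadjusted p below 0.05 there were 10 of 42, or 23.8%, against 14.4% of all probe sets. The differences between mutant and wild type skin, on the log2 scale, ran from -0.38 (Col8a2) to 0.40 (Col23a1), and 22 were above and 20 below 0. Their median was 0.0025, beside 0.0247 over all probe sets. In whole skin, fewer cells of a type and less RNA per cell cannot be told apart. All 42 intervals of 95% confidence lay within a 2-fold change in either direction, and 36 lay within 1.5-fold. Wild type and mutant values were fully separate for 10 genes (23.8%), 6 higher and 4 lower in mutant skin, against 20.3% of all probe sets, so this share was near the background.

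**Figure D1:**
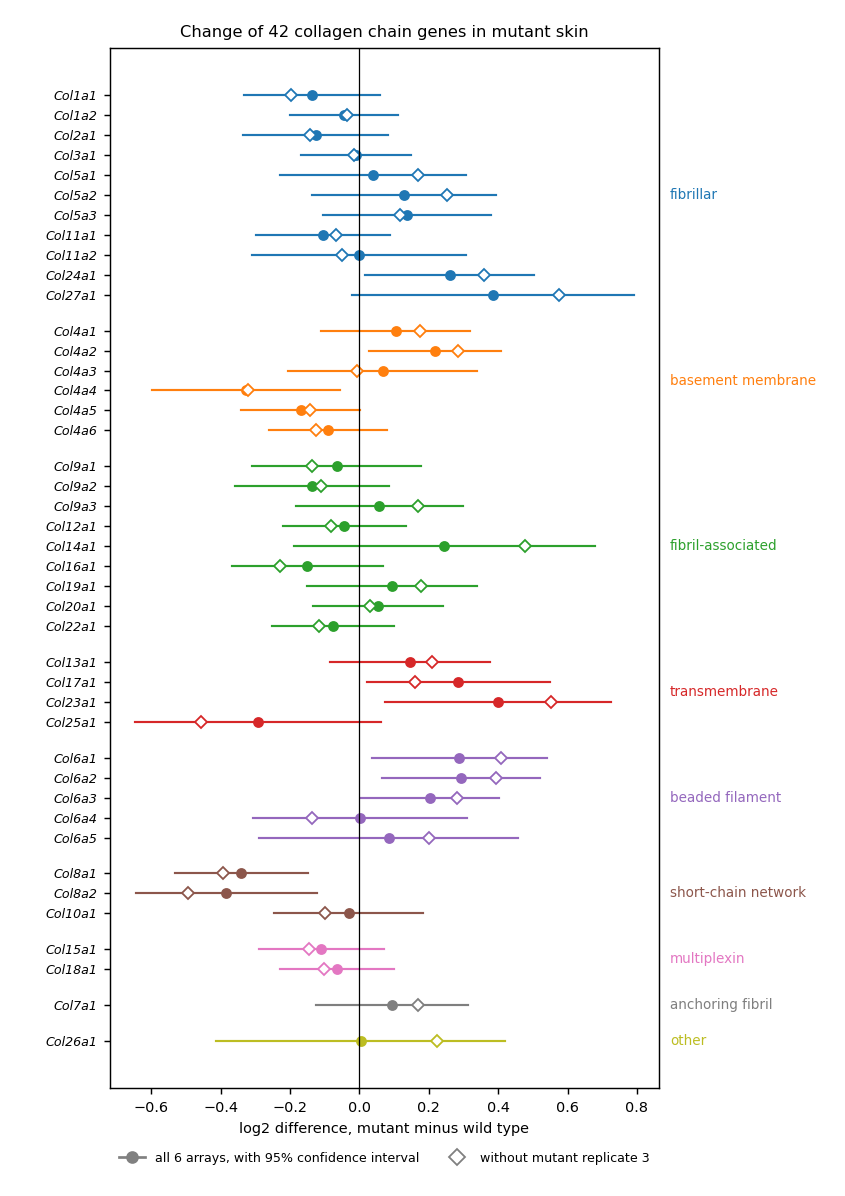
Difference between mutant and wild type skin (log2, x axis) for each of the 42 collagen genes (y axis), coloured by class. Filled circles are the fit with all 6 arrays with 95% confidence intervals, and open diamonds the fit without mutant replicate 3. The filled circles lie between -0.38 and 0.40, and the open diamonds of Col6a1, Col6a2 and Col6a3 lie to the right of the filled ones.

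When mutant replicate 3 was left out, 11 of the 42 genes passed (26.2%), where 14.2% of all probe sets did. Higher in mutant skin were 8: Col4a2, Col6a1, Col6a2, Col6a3, Col14a1, Col23a1, Col24a1 and Col27a1, beside 7.95% of all probe sets. Lower were 3: Col8a1, Col8a2 and Col25a1, beside 6.23%. In all 11 the value of mutant replicate 3 was nearer to the wild type mean than either other mutant value, which follows in part from the choice of genes that pass only without that array. A fit that kept all arrays but gave each a weight (0.234 for mutant replicate 3, 1.23 to 1.44 for the others) called the same 11 of 11 genes, with 11.5% of all probe sets called. The weights came from these same data and left little of mutant replicate 3, so this fit was not independent of the fit without that array. Over all 42 genes, mutant replicate 3 was the mutant array nearest to the wild type mean in 25 (59.5%), against 40.4% of all probe sets.

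**Figure D2:**
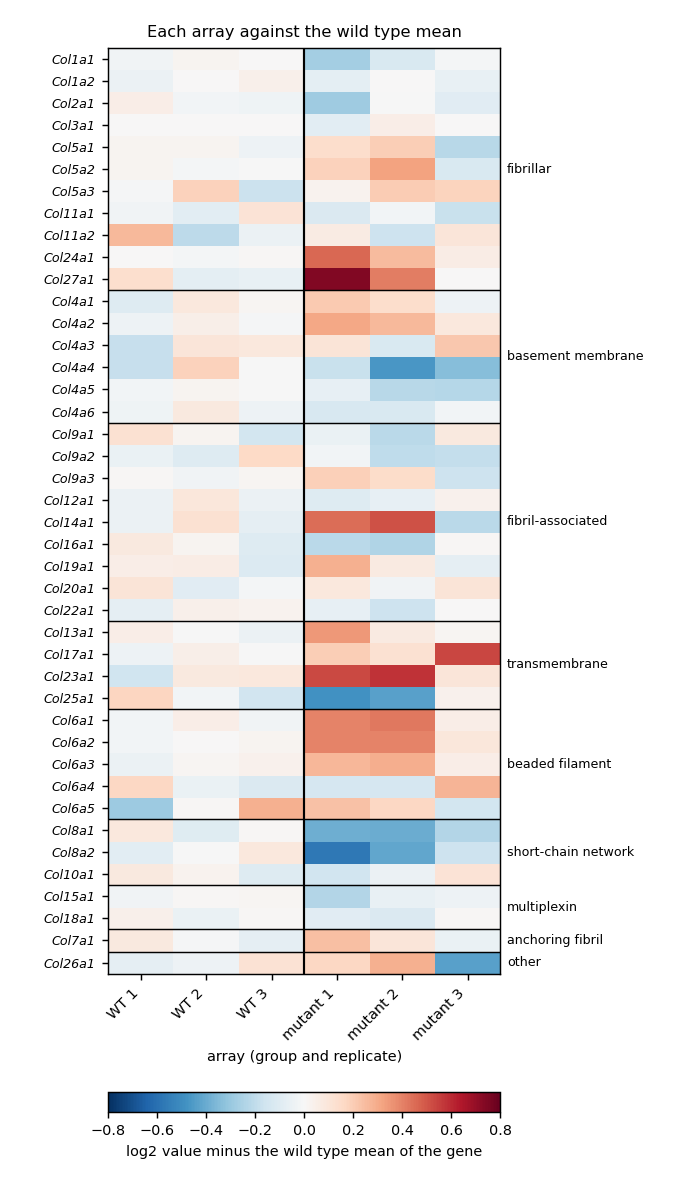
Each collagen gene (rows, grouped by class) on each array (columns), as its log2 value minus the wild type mean of the gene; red is higher and blue lower. Mutant replicates 1 and 2 share the red of Col6a1, Col6a2, Col6a3, Col14a1, Col23a1 and Col27a1 and the blue of Col8a1, Col8a2 and Col25a1, and most of these fade in mutant replicate 3.

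Wild type means ran from 3.58 to 14.33. The wild type mean lay above the upper quartile of the array (8.89) for 20 genes and below its lower quartile (5.485) for 11. For 5 genes (Col6a5, Col13a1, Col19a1, Col22a1 and Col24a1) all 6 values lay within the range of the Y chromosome probe sets, and no detection calls separated such values from background. The level of a probe set depends on its probes, so levels do not rank the genes.

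The chains of the main dermal fibrils kept close to their wild type values. Col3a1, the chain of type III collagen, read 14.33 on each wild type array and 14.25, 14.38 and 14.33 in mutant replicates 1, 2 and 3. It held rank 2 on each wild type array and ranks 3, 1 and 2 in the mutant, and since the arrays were set to the same values at each rank, its level was fixed by its rank. A difference of Col3a1 larger than these ranks allow could not be read from the values.

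Type I collagen is made of 2 chains of Col1a1 and 1 of Col1a2. Col1a1 read 13.17, 13.22 and 13.20 in wild type skin and 12.92, 13.08 and 13.19 in mutant skin. Only mutant replicates 1 and 2 lay below the wild type range, and the difference of -0.14 (95% interval -0.33 to 0.058) did not pass (limma adjusted p = 0.501). Col1a2 read 13.58, 13.63 and 13.67 in wild type skin and 13.55, 13.63 and 13.57 in mutant skin, with overlapping groups and a difference of -0.044 (limma adjusted p = 0.819). Neither passed without mutant replicate 3 (adjusted p = 0.120 and 0.775). Col1a1 held ranks 60, 55 and 58 on the wild type arrays and 82, 70 and 59 on the mutant arrays. Col1a2 held ranks 30, 27 and 25 and then 32, 27 and 31. Their levels were thus also set by ranks near the top of the arrays.

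Type V collagen lies inside type I fibrils and limits their width. Col5a1 read 10.90, 10.90 and 10.84 in wild type skin and 11.03, 11.08 and 10.66 in mutant skin. Col5a2 read 11.64, 11.61 and 11.62 in wild type skin and 11.81, 11.94 and 11.50 in mutant skin. For both genes mutant replicates 1 and 2 lay above and mutant replicate 3 below all wild type values, so the group differences were small (0.039 and 0.13). Without mutant replicate 3 the differences were 0.17 and 0.25 (limma adjusted p = 0.142 and 0.0559). The third chain, Col5a3, differed by 0.14 with overlapping groups.

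The fibrillar gene with the largest difference was Col27a1, a chain known from cartilage. It read 7.76, 7.55 and 7.57 in wild type skin and 8.37, 8.04 and 7.63 in mutant skin. Mutant replicates 1 and 2 were above all wild type values and mutant replicate 3 was among them. The difference was 0.38 (SE 0.17, limma adjusted p = 0.372) with all arrays and 0.58, or 1.49-fold, without mutant replicate 3 (adjusted p = 0.0170). Col24a1 read 3.60 to 3.63 in wild type and 3.68 to 4.08 in mutant skin, with groups that did not overlap, but all within the Y chromosome range. The cartilage chains Col2a1, Col11a1 and Col11a2 differed by -0.13, -0.11 and -0.0017, with limma adjusted p from 0.567 to 0.997. The 11 fibrillar genes had a median of -0.0017, and 2 of 11 passed without mutant replicate 3, near the 14.2% of all probe sets.

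Among the 9 fibril-associated genes Col14a1 had the largest difference. Type XIV collagen binds the surface of dermal fibrils. Col14a1 read 9.07, 9.24 and 9.04 in wild type skin and 9.56, 9.62 and 8.90 in mutant skin, so that mutant replicates 1 and 2 lay above and mutant replicate 3 below every wild type value. With all arrays the difference was 0.24 (SE 0.19, limma adjusted p = 0.598), and without mutant replicate 3 it was 0.48, or 1.39-fold (adjusted p = 0.0104). Col12a1, whose chain also binds type I fibrils, read 10.00, 10.14 and 10.01 in wild type skin and 9.95, 9.99 and 10.09 in mutant skin, a difference of -0.043. Col16a1, which differed most downward in this class, read 9.81, 9.76 and 9.63 against 9.52, 9.49 and 9.74 (-0.15, limma adjusted p = 0.510). The chains of type IX collagen of cartilage, Col9a1, Col9a2 and Col9a3, and Col19a1, Col20a1 and Col22a1 had low levels (wild type means 4.15 to 6.25) and differences from -0.14 to 0.095. The median of the class was -0.043.

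The 3 chains of the common type VI trimer were higher in mutant replicates 1 and 2. Type VI collagen forms a network close to cells, and its loss weakens skeletal muscle. Col6a1 read 11.47, 11.54 and 11.46 in wild type skin and 11.88, 11.91 and 11.54 in mutant skin. Col6a2 read 11.63, 11.65 and 11.67 in wild type skin and 12.05, 12.05 and 11.74 in mutant skin. Col6a3 read 12.22, 12.29 and 12.30 in wild type skin and 12.54, 12.56 and 12.32 in mutant skin. For Col6a2 and Col6a3 all mutant values were above all wild type values, while for Col6a1 mutant replicate 3 lay just inside the wild type range. The differences were 0.29 (SE 0.11), 0.29 (SE 0.097) and 0.20 (SE 0.085), with limma adjusted p = 0.284, 0.224 and 0.336. In the fit without mutant replicate 3 they were 0.41, 0.40 and 0.28, or 1.33-, 1.32- and 1.21-fold, and all 3 passed (adjusted p = 0.00888, 0.00840 and 0.0332). The other measured type VI chains were too low to compare: Col6a4, below the lower quartile of the array, read 5.02 to 5.29 against 4.99 to 5.40 (0.0010), and Col6a5, within the Y chromosome range, 3.29 to 3.87 against 3.44 to 3.81 (0.084).

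Col6a1 and Col6a2 are neighbours on chromosome 10 in RefSeq, and Col6a3 lies on chromosome 1. Since these 3 chains were all higher in mutant replicates 1 and 2, the 300 bases around their starts are shown 5′ to 3′ on the strand of the gene, from 250 bases before to 50 after the start, from RefSeq on GRCm38.p6. Capitals mark, on either strand, the GC box (letters GGGCGG), the CCAAT box, the TATA box (letters TATAAA) and the letters TTTAT, a core bound by Hox proteins of the Hoxc13 kind, which can overlap the TATA box.
Col6a1 (chr10:76725995-76726294, minus strand): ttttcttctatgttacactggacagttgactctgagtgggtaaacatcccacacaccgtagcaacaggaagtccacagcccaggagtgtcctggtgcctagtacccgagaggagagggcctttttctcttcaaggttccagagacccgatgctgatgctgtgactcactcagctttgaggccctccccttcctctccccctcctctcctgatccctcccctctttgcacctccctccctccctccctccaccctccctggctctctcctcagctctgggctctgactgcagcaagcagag
Col6a2 (chr10:76623581-76623880, minus strand): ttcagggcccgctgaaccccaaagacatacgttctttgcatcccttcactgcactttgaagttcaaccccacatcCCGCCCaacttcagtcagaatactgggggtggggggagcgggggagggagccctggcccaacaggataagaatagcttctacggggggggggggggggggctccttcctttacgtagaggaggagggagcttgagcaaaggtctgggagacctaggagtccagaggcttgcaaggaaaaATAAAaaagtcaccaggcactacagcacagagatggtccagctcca
Col6a3 (chr1:90843922-90844221, minus strand): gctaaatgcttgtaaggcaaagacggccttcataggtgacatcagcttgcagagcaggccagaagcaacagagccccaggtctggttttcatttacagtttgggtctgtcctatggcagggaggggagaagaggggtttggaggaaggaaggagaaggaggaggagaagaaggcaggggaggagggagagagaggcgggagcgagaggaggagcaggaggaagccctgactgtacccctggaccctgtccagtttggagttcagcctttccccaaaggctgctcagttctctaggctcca
Col6a1 and Col6a3 hold none of these motifs in this window, and Col6a2, for which RefSeq lists 2 starts, holds 1 GGGCGG and 1 TTTAT. Of 32851 mouse windows of this length, 35.7% hold GGGCGG, 37.4% CCAAT, 13.6% TATAAA and 40.0% TTTAT. Windows were listed for 33 of the 42 genes, and of these 21 held GGGCGG, 12 CCAAT, 5 TATAAA and 10 TTTAT. A match describes the letters only.

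**Figure D3:**
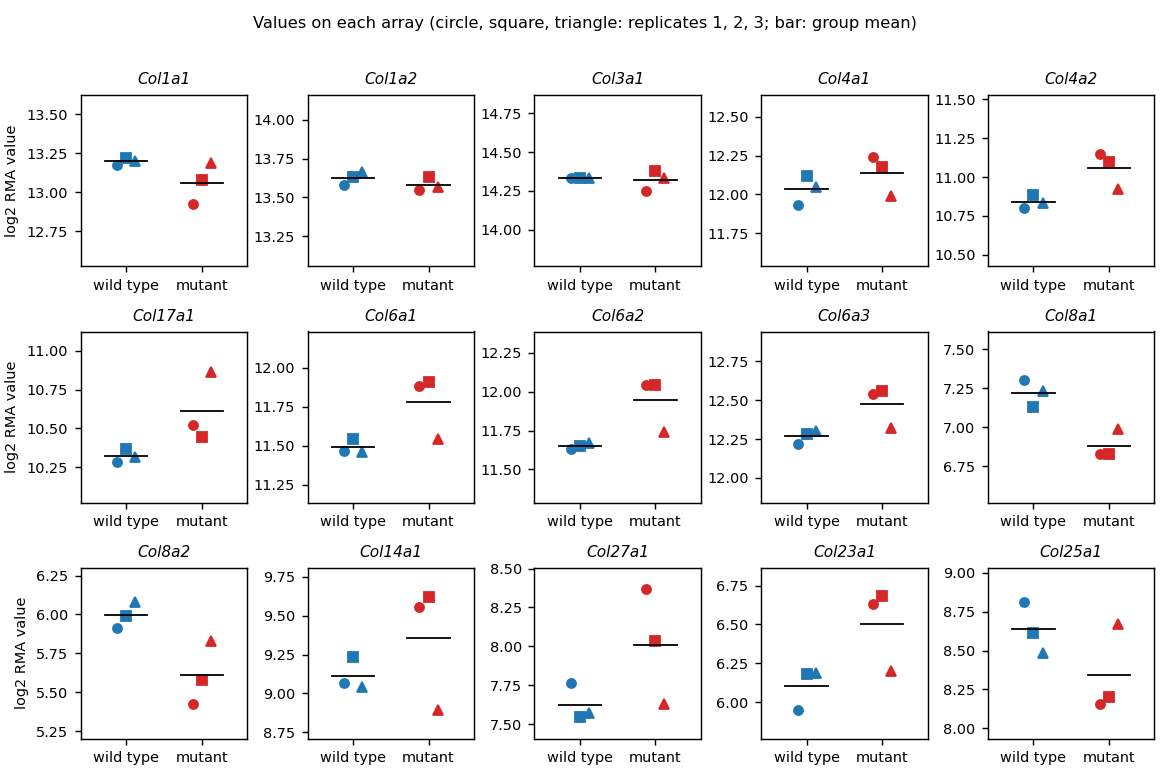
Log2 RMA values (y axis) of 15 collagen genes in wild type (blue) and mutant (red) skin, with a circle, square and triangle for replicates 1, 2 and 3 and a bar for the group mean; every panel spans the same range of log2 units. Col1a1, Col1a2 and Col3a1 stay near their wild type values, whereas the red circles and squares of Col6a1, Col6a2, Col6a3 and Col14a1 lie above and those of Col8a1 and Col8a2 below the blue points.

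Among the 7 types with several measured chains, type VIII was the only type whose chains all lay below every wild type value on all mutant arrays. It is a short-chain collagen of the matrix around blood vessels and of the eye. Col8a1 read 7.30, 7.13 and 7.23 in wild type skin and 6.83, 6.83 and 6.99 in mutant skin. Col8a2 read 5.91, 5.99 and 6.08 in wild type skin and 5.42, 5.58 and 5.83 in mutant skin. Both chains read low: their wild type means (7.22 and 5.99) were below the array median of 7.405. In mutant replicate 1, Col8a2 lay below the lower quartile (5.485), where values were not separated from background. Again mutant replicate 3 was the mutant array nearest to wild type. With all arrays the differences were -0.34 (95% interval -0.53 to -0.15) and -0.38 (-0.65 to -0.12), or 1.27- and 1.31-fold lower, and neither passed (limma adjusted p = 0.105 and 0.172). That of Col8a1 was the smallest adjusted p of the 42 genes. Both passed when mutant replicate 3 was left out, at -0.39 (adjusted p = 0.0155) and -0.49 (adjusted p = 0.00969). Col10a1, the chain of growth plate cartilage in the same class, read 4.88 to 5.06 against 4.83 to 5.09, with a difference of -0.031.

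The windows of the type VIII genes, which lie on chromosomes 16 and 4, are shown in the same way because both chains were lower in every mutant array.
Col8a1 (chr16:57754688-57754987, minus strand): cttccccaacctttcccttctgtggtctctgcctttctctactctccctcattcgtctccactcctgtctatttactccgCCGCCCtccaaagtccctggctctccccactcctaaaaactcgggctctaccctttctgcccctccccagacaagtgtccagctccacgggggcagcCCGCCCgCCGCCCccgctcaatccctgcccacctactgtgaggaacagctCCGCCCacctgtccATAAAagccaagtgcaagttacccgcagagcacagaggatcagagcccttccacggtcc
Col8a2 (chr4:126286544-126286843, plus strand): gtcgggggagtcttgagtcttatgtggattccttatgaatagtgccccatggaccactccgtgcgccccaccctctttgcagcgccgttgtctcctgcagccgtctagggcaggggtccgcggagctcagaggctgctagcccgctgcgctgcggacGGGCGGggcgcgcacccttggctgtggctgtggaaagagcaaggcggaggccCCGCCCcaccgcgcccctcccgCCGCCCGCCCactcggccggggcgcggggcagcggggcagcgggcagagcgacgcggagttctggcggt
Each holds 4 matches of GGGCGG, and that of Col8a1 also 1 TTTAT. Their GC contents were 60.3% and 71.7%, beside a median of 60.0% over the 33 collagen windows and 52.7% over all windows.

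In the basement membrane class the ubiquitous pair Col4a1 and Col4a2, which together form the main type IV trimer, differed upward by small amounts. Col4a1 read 11.93, 12.12 and 12.05 in wild type skin and 12.24, 12.17 and 11.99 in mutant skin, with overlapping groups (0.10, limma adjusted p = 0.658). Col4a2 read 10.80, 10.89 and 10.83 in wild type skin and 11.15, 11.10 and 10.93 in mutant skin, where every mutant value was higher. Its difference was 0.22 (SE 0.081, limma adjusted p = 0.278), and 0.28 without mutant replicate 3 (adjusted p = 0.0334). The pair is transcribed from a shared start region in opposite directions, for which the window of Col4a2 is shown.
Col4a2 (chr8:11312555-11312854, plus strand): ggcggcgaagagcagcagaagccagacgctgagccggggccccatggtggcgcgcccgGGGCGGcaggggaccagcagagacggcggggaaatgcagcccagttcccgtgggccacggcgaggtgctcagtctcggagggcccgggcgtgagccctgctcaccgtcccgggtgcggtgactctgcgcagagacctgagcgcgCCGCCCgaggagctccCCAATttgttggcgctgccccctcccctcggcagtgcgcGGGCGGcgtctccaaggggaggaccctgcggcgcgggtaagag
It holds 3 matches of GGGCGG and 1 of CCAAT, with a GC content of 73.7%.

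The other type IV chains did not share the upward values of Col4a2. Col4a5 and Col4a6, neighbours on the X chromosome and partners in the basement membrane of skin, differed by -0.17 and -0.091. Col4a5 read 9.33 to 9.37 in wild type and 9.12 to 9.28 in mutant skin, without overlap (limma adjusted p = 0.351). Col4a4, best known from the kidney and inner ear, read 5.55, 5.92 and 5.73 in wild type skin and 5.56, 5.27 and 5.39 in mutant skin, a difference of -0.33 (limma adjusted p = 0.254) with overlapping groups. Its neighbour Col4a3 differed by 0.067. The median of the 6 genes was -0.012, and 1 of 6 passed without mutant replicate 3, beside 14.2% of all probe sets.

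Of the collagens at the junction between epidermis and dermis, Col17a1 had its highest value in the mutant array that stood apart. Col17a1 encodes the transmembrane collagen of hemidesmosomes. It read 10.29, 10.37 and 10.32 in wild type skin and 10.52, 10.45 and 10.86 in mutant skin, without overlap. The difference was 0.29 (SE 0.11, limma adjusted p = 0.311) and 0.16 without mutant replicate 3 (adjusted p = 0.172). Col7a1, the chain of anchoring fibrils, read 9.12, 9.03 and 8.97 in wild type skin and 9.28, 9.14 and 8.99 in mutant skin, with overlapping groups (0.094, limma adjusted p = 0.701). The mean of the 9 basal keratinocyte markers was likewise highest in mutant replicate 3, at 10.56 against 10.38 and 10.34 in mutant replicates 1 and 2 and 10.13 to 10.28 in wild type skin. Not every marker followed the mean: Krt15 had its lowest value of the 6 arrays in mutant replicate 3 (12.29), Dst its lowest mutant value there (8.78), and Itga6 and Lamb3 were highest in mutant replicates 2 and 1. Of the 9, Lamb3 alone was called higher with all arrays, beside 0.478% of all probe sets. Their part in the Col17a1 values was not tested.

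The other transmembrane collagens went in different directions. Col23a1 read 5.95, 6.18 and 6.19 in wild type skin and 6.63, 6.68 and 6.20 in mutant skin, and mutant replicate 3 exceeded the highest wild type value only narrowly. Its difference of 0.40 (SE 0.14, limma adjusted p = 0.248) became 0.55, or 1.47-fold, without mutant replicate 3 (adjusted p = 0.00876). Col25a1 read 8.81, 8.61 and 8.48 in wild type skin and 8.16, 8.20 and 8.67 in mutant skin. Mutant replicates 1 and 2 were below and mutant replicate 3 among the wild type values, so that the difference was -0.29 (limma adjusted p = 0.430) with all arrays and -0.46 without that array (adjusted p = 0.0240). Col13a1 read 3.90 to 4.00 against 3.96 to 4.29, all within the Y chromosome range.

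The multiplexins, basement membrane collagens that carry sugar chains, were close to wild type. Col15a1 read 9.11, 9.15 and 9.15 in wild type skin and 8.90, 9.08 and 9.10 in mutant skin, lower on all mutant arrays by a narrow margin (-0.11, limma adjusted p = 0.561). Col18a1, whose chain yields endostatin, read 9.89, 9.80 and 9.86 against 9.76, 9.73 and 9.86 (-0.065). Col26a1 read 6.42, 6.46 and 6.61 in wild type skin and 6.66, 6.78 and 6.06 in mutant skin. Its mutant replicate 3 lay below every other value, and the difference was 0.0040 (limma adjusted p = 0.996). None of these 3 passed without mutant replicate 3.

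Genes that make, bind or remove collagen were read from 7 lists with 85 measured genes. Of these, 2 were called higher and 1 lower with all arrays, beside 0.478% and 1.6% of all probe sets. The fit without mutant replicate 3 called 20 higher and 3 lower, beside 7.95% and 6.23% of all probe sets, and the counts of single lists are set against the same shares. The median difference of the 85 genes was 0.10.

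None of 16 chain hydroxylation and folding genes passed with all arrays, and 0 had an unadjusted p below 0.05; the smallest p was that of the lysyl hydroxylase gene Plod1 (0.18, limma adjusted p = 0.422). Plod1 and the prolyl 3-hydroxylase family genes P3h3 and P3h4 were called higher without mutant replicate 3. Serpinh1, the collagen chaperone of the endoplasmic reticulum, differed by 0.050 (limma adjusted p = 0.915). In 15 of the 16 genes mutant replicate 3 read below the average of the other mutant arrays, against 7534 of all 16331 probe sets. The median gap of the 16 genes was -0.28, beside 0.022 over all probe sets. This was not particular to these genes, as all 10 skeletal muscle and all 6 fat cell markers also read below.

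Of 10 genes of propeptide removal and cross-linking none passed with all arrays, 3 had an unadjusted p below 0.05 (14.4% of all probe sets) and 3 were called higher without mutant replicate 3 (7.95% of all probe sets). The 3 called were Tll1, a tolloid-like protease, Pcolce, which enhances removal of the C-propeptide, and Loxl1, a lysyl oxidase. Tll1 read 4.71, 4.76 and 4.87 in wild type skin and 5.13, 5.40 and 5.01 in mutant skin (0.40, limma adjusted p = 0.143). All these values lay below the lower quartile of the array, and those of wild type skin within the Y chromosome range. Tll2, wholly within that range, was lower on every mutant array (-0.22, limma adjusted p = 0.240). Lox itself differed by -0.035.

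Among 14 fibril-binding proteoglycans and glycoproteins, Ogn, the small leucine-rich proteoglycan osteoglycin, fell. It read 10.59, 10.70 and 10.75 in wild type skin and 9.69, 10.23 and 9.89 in mutant skin, so all mutant values were lower. The difference was -0.74 (SE 0.14, limma adjusted p = 0.0409). The call was lost without mutant replicate 1 or any single wild type array (range of the difference over all single omissions -0.89 to -0.62; adjusted p 0.0120 to 0.188) and held without mutant replicate 3 (-0.72, adjusted p = 0.0185). Dcn, decorin, which coats type I fibrils, differed by 0.26 (limma adjusted p = 0.328), and the median of the list was 0.12.

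None of 11 collagen degradation genes passed with all arrays and 3 had an unadjusted p below 0.05, beside 14.4% of all probe sets. The smallest p was that of Fap, a surface protease of activated fibroblasts, which read 10.17, 10.34 and 10.31 in wild type skin and 9.94, 9.72 and 9.45 in mutant skin (-0.57, limma adjusted p = 0.0783). Fap was called lower and Mmp2, a gelatinase, higher without mutant replicate 3. Of 8 collagen receptors none passed with all arrays and 1 had an unadjusted p below 0.05, near the 14.4% of all probe sets. That gene was Itga2, an integrin chain of keratinocytes, with 6.54 to 6.58 in wild type and 6.80 to 7.16 in mutant skin (0.38, limma adjusted p = 0.140).

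Of 13 basement membrane partners of type IV collagen, the laminin gene Lamb3 rose. It read 7.73, 7.60 and 7.63 in wild type skin and 8.11, 7.96 and 8.08 in mutant skin (0.40, SE 0.077, limma adjusted p = 0.0494). The fit without mutant replicate 3 called 5 partners higher, among them Lamb1 and Nid1, beside 7.95% of all probe sets. Nid2, the second nidogen, differed the other way with all arrays (-0.54, limma adjusted p = 0.234), with overlapping groups. Of 13 genes of transforming growth factor beta signalling and collagen gene regulation, 7 had an unadjusted p below 0.05, beside 14.4% of all probe sets. Without mutant replicate 3, 4 were called higher and 1 lower, beside 7.95% and 6.23% of all probe sets. The gene called lower was Smad7 (-0.33 with all arrays, limma adjusted p = 0.459). With all arrays Tgfb1, the ligand known to raise collagen transcription, was the 1 gene of this list called, and rose. It read 7.78, 7.72 and 7.69 in wild type skin and 8.10, 8.15 and 8.29 in mutant skin (0.45, SE 0.077, limma adjusted p = 0.0335). Every mutant value was above every wild type value for both genes. Each call held without mutant replicate 3 and failed on omission of any other array (Lamb3 0.37 to 0.44, adjusted p 0.0208 to 0.217; Tgfb1 0.39 to 0.49, adjusted p 0.0107 to 0.169). The Lamb3 call was also lost with an intensity trend and robust prior (adjusted p = 0.0593). Col1a1, Col1a2 and Col3a1 were not among the called genes in any fit. Their levels were set by ranks near the top of the arrays, which limits the differences that can be read for these genes. The part of Tgfb1 in the collagen values was not tested.

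**Figure D4:**
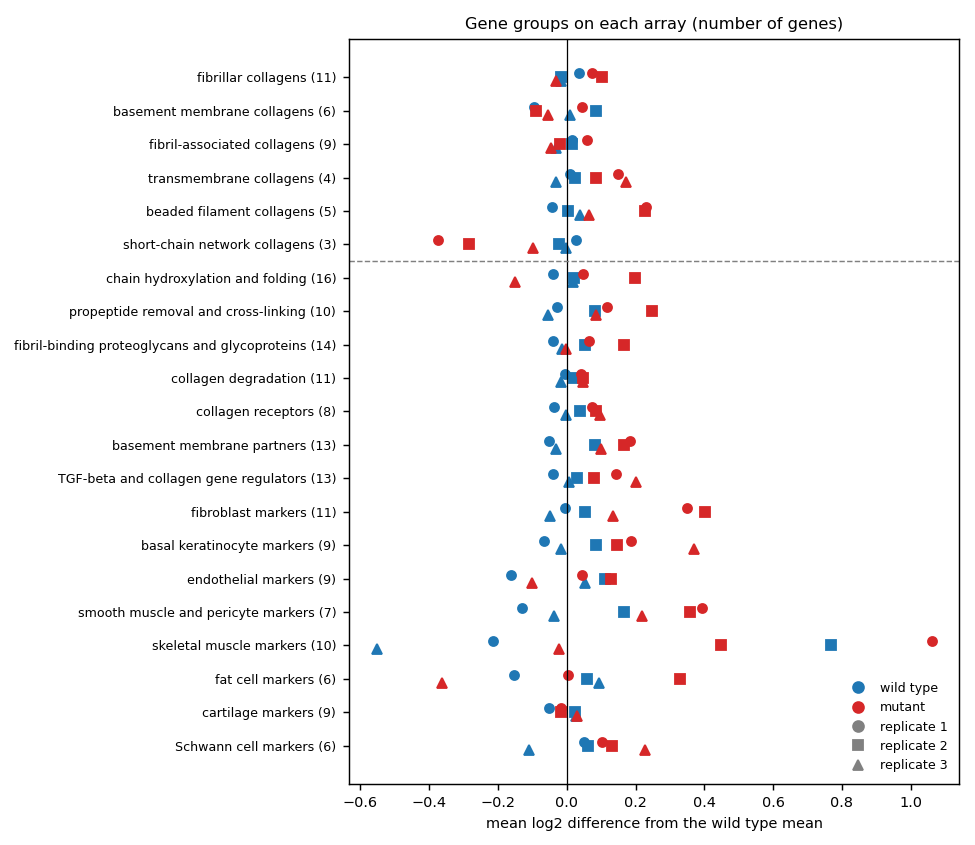
Mean log2 difference from the wild type mean (x axis) of 6 collagen classes and, under the dashed line, 7 lists of collagen pathway genes and 8 lists of cell type markers (number of genes in brackets) on each array; blue is wild type, red mutant, and the symbols are replicates. Fibroblast markers lie at 0.351, 0.402 and 0.133 in mutant replicates 1 to 3, and beaded filament collagens at 0.231, 0.228 and 0.064.

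Cell type markers moved with some of these values. The 11 fibroblast markers had a mean of 9.87 to 9.97 in wild type skin and 10.27, 10.32 and 10.05 in mutant replicates 1, 2 and 3. Thus the mutant arrays were higher and mutant replicate 3 the lowest of them, as for the type VI chains. Of these markers 2 rose with all arrays (S100a4 by 0.72 and Lrig1 by 0.43, neither confined to fibroblasts), beside 0.478% of all probe sets. Without mutant replicate 3, 7 were called higher, where 7.95% of all probe sets were. Among the 7 were Pdgfra (0.37 with all arrays, limma adjusted p = 0.148), Twist2 (0.39, limma adjusted p = 0.556) and Vim (0.41, limma adjusted p = 0.0673). Other markers did not follow the mean: Dpp4 was lower (-0.18), and Pdgfrb and Serpinf1 differed by only 0.065 and 0.061. In mutant replicate 3, S100a4 had its highest value (10.16) and Twist2 (8.88) lay below every wild type value. The 10 skeletal muscle markers had means of 10.62, 11.60 and 10.28 in wild type skin and 11.90, 11.28 and 10.81 in mutant skin, a wide and overlapping range. No gene of this list was called with all arrays, and 3 had an unadjusted p below 0.05, beside 14.4% of all probe sets. Without mutant replicate 3, 3 were called higher, beside 7.95%. The 7 smooth muscle and pericyte markers had means of 8.93 to 9.23 in wild type and 9.28 to 9.46 in mutant skin, the lowest again in mutant replicate 3. With all arrays 0 were called and 5 had an unadjusted p below 0.05, beside 14.4% of all probe sets. Without mutant replicate 3, 2 were called higher, beside 7.95%. Des differed most (0.83, limma adjusted p = 0.321), with widely spread wild type values (9.02, 9.60 and 8.45), and Rgs5 was lower (-0.12). For Rgs5 and Cspg4, mutant replicate 3 read above the average of the other mutant arrays (by 0.29 and 0.12). The 6 fat cell markers had means of 10.22 to 10.47 in wild type skin and 10.38, 10.71 and 10.01 in mutant skin. With all arrays 0 were called, and 3 were called higher without mutant replicate 3, beside 7.95% of all probe sets. The largest difference of the fat cell list went the other way: Lep, the leptin gene, read 8.30, 8.80 and 9.44 in wild type skin and 6.76, 8.16 and 7.31 in mutant skin. Every mutant value of Lep was below every wild type value (-1.44, limma adjusted p = 0.139; -1.39 and 0.0702 without mutant replicate 3), and Lep was the 1 fat cell gene with an unadjusted p below 0.05. The part of these cell types in the collagen values was not tested.

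The 9 endothelial markers had means of 7.17 to 7.44 in wild type and 7.23 to 7.46 in mutant skin, with none called in either fit and 0 at an unadjusted p below 0.05. The 9 cartilage markers had means of 4.81 to 4.89 in wild type and 4.85 to 4.89 in mutant skin, with none called in either fit and 1 at an unadjusted p below 0.05. Matn1, Matn3 and Hapln1 read at most 3.76 in the group means, within the Y chromosome range, where Cnmd and Ucma also lay. Acan (wild type mean 6.64), Snorc (6.29), Chad and Comp read above that range on all arrays. The gene with an unadjusted p below 0.05 was Comp, higher on every mutant array (0.33, limma adjusted p = 0.268). Snorc was lower on every mutant array (-0.1997, limma adjusted p = 0.401). The 6 Schwann cell markers, of which Mpzl2 is also made by epithelia, had means of 8.59 to 8.77 in wild type and 8.81 to 8.93 in mutant skin, so that every mutant mean was above every wild type mean. None was called with all arrays, and 3 had an unadjusted p below 0.05, beside 14.4% of all probe sets. Without mutant replicate 3, 2 were called higher and 1 lower, beside 7.95% and 6.23% of all probe sets. The myelin genes Mbp (0.78, limma adjusted p = 0.177) and Pmp22 (0.46, limma adjusted p = 0.0958) had the largest differences of this list. Not every marker followed the mean: S100b was lower on every mutant array (-0.33, limma adjusted p = 0.209). Sox10 differed by only 0.0040, Egr2 by 0.125 and Mpzl2 by -0.12, each with overlapping groups. The part of the Schwann cell markers in the collagen values was not tested.

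Genes of neighbouring collagens did not have a common size of difference. Col3a1 and Col5a2 lie side by side on chromosome 1 with differences of -0.011 and 0.13, and Col9a1 and Col19a1 with -0.066 and 0.095. Col4a3 and Col4a4 had 0.067 and -0.33. The other measured pairs shared a sign. Col6a1 and Col6a2 had 0.29 each, and Col4a1 and Col4a2 had 0.10 and 0.22. Col4a6 and Col4a5 had -0.091 and -0.17, and the low Col6a5 and Col6a4 had 0.084 and 0.001. None of these genes passed with all arrays.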

How the data were processed

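Total RNA of dissected skin was amplified in 1 cycle from the 3′ end, labelled with biotin and measured on Affymetrix arrays, per the labels' protocols. The values deposited by the authors are log2 RMA summaries, per the submitters' processing notes (version not given in the sources used here). At equal rank the 6 arrays differed by at most 0.01, so differences in total RNA per sample are lost and the highest probe sets are held at fixed values. No counts exist for arrays, and 3 arrays per group limit the precision.

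Of 16395 probe sets, 64 controls were left out and 16331 tested; 15644 had 1 gene symbol in the array annotation, 0 several, and 687 were unlisted. All 42 collagen identifiers matched RefSeq (GRCm38.p6), with the same symbol. The comparison used lmFit and eBayes of limma 3.58.1 in R 4.3.3, two-sided and without block or filter, with Benjamini-Hochberg adjustment over 16331 probe sets at 0.05. The p-values reflect only the spread among these 6 samples. Collagens were matched by symbol and assigned to classes by textbook type. Values on each array are given for 16 structural collagens fixed by name and for the largest increase and decrease of each class. Col8a1, Col24a1, Col26a1 and other genes with values on each array or as ranges were added after their values were seen. So were Serpinh1, Lox, Dcn, Pdgfra, Twist2, Vim and further genes named from the lists. From each pathway or marker list up to 4 called genes, or the gene with the smallest p, were named, with the latter left out for most marker lists. The members and lists were chosen with earlier results of these data known. The test was tried on simulated data. Alternatives were a filter on low levels, repeated quantile normalisation, centring, array weights, a robust variance prior with an intensity trend, a block for the replicate number and leaving out each array. Figures were drawn with matplotlib 3.10.9.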

Additional observations from a re-analysis of the deposited data

How the results depend on the processing

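The number of collagen genes called was 0 with all arrays and stayed 0 under centring, repeated quantile normalisation, the intensity trend, the filter on low levels and the replicate block; it was 11 with array weights, and ranged from 0 to 11 when single arrays were left out, the 11 being without mutant replicate 3. Over all probe sets 339 were called, 1880 with array weights, 197 with the replicate block, and 151 to 2316 without single arrays. Of the pathway genes 3 were called, 2 with the intensity trend and robust prior (Lamb3 was lost), 22 with array weights, 0 with the replicate block, and 0 to 23 without single arrays. Same-numbered arrays deviated from their group means with correlations of 0.036, -0.119 and -0.0873, beside -0.121 to 0.237 for differently numbered arrays. The numbers gave no sign of pairing, which 3 arrays per group cannot settle. The filter on low levels left 23 collagen genes and fewer members per class. It moved the transmembrane median from 0.216 to -0.00383 and the beaded filament median from 0.204 to 0.288. No short-chain gene was left, so Col8a1 and Col8a2 were not tested under the filter. Without single arrays the beaded filament median ranged from 0.16 to 0.28 and the fibril-associated median from -0.0828 to 0.0107. The basement membrane and fibrillar medians lay near 0 and changed sign under the filter (0.0065 and 0.0143). They also changed sign without some single arrays. The basement membrane median ranged from -0.0674 (without mutant replicate 3) to 0.0322 (without wild type replicate 2). The fibrillar median ranged from -0.0385 (without mutant replicate 2) to 0.0498 (without wild type replicate 1). No single collagen gene that was called in any alternative had the opposite sign in the fit with all arrays. The cause of these changes was not tested, beyond the smaller number of genes under the filter. Levels below about the lower quartile were not separated from background.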
